A study of Homo sapiens with 17 samples.

Results

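The peaks described here lie in the centromere sequence of chromosomes 1 and 13. A peak was taken when its midpoint lay in chr1:121700001-125200000, a window of 3.5 Mb, or in chr13:16000001-18100000, a window of 2.1 Mb, both in GRCh38 coordinates. This gave 7345 of the 265457 peaks in 10 lists, of which 7095 were among the 208775 peaks of the 8 lists that join both replicates of a group. The RefSeq annotation of GRCh38.p14 places 0 genes inside either window. On chromosome 1 the nearest annotated genes are EMBP1, which ends at 121571888, and LOC101929814, which starts at 143299518. On chromosome 13 the nearest annotated gene after the window is LOC124903223, which starts at 18176737.

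Human centromeres are built on alpha satellite, an AT-rich DNA repeat arranged head to tail in long arrays. In GRCh38 these arrays are represented by modelled sequence, and the models of some chromosomes are close copies of each other: chromosomes 1, 5 and 19 form 1 such family, and chromosomes 13, 14, 21 and 22 another. FOXA1, FOXA2 and FOXA3 are forkhead transcription factors of the endoderm and liver, SOX2 is an HMG-box factor of pluripotent and neural cells, and both families are known as pioneer factors because they can bind DNA wrapped in nucleosomes. Pioneer factor binding is studied mostly at enhancers, and short reads from satellite arrays often fit many places equally well.

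The factors were expressed in U2OS, a human osteosarcoma line in which they come from a doxycycline-inducible Tet-on construct, and were recovered with a Flag antibody. The 8 groups were FOXA1, FOXA2 and FOXA3 at full length (labelled FOXA1FL, FOXA2FL, FOXA3FL), the same proteins without the C-terminal domain or CTD (FOXA1dCTD, FOXA2dCTD, FOXA3dCTD), SOX2 (SOX2FL), and SOX2 fused to the CTD of FOXA2 (SOX2FLFOXA2CTD). Doxycycline was given to every group at 500 ng/ml over 4 days, and each group had 2 biological replicates. The labels also describe 1 input, for a total of 17 samples, and the input was not analysed here. The extraction protocol gives the dose in ng/ul instead, and the labels do not say whether a line is 1 clone. Each group has 1 list of peaks matched between its replicates by the irreproducible discovery rate (IDR), so there is no error between replicates for a count of peaks and no test was run. Intervals are Wilson 95% intervals over peaks and cover counting error only. Depth is unknown.

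The lists fell into 2 kinds, which bears on every count that follows. Over the gene-free stretches longer than 1.5 Mb on chromosomes 5, 14, 19, 21 and 22, which hold the related centromere copies, the FOXA2 full-length list had 815 peaks and the FOXA2 CTD-deleted list 694. The SOX2 list had 9 there, the fusion list 41, both FOXA1 lists 4 and 16, and both FOXA3 lists 5 and 4. The lists of the first replicate alone, which exist for SOX2 and the fusion, had 311 and 375. The lists also differ in length. The joined lists have 1375 peaks for SOX2 and 7895 for the fusion, and the first-replicate lists 13977 and 42705. The FOXA3 lists have 6130 and 6813, the FOXA1 lists 37532 and 50539, and the FOXA2 lists 45076 and 53415. A shorter list has fewer peaks to place in any stretch, and the part of length in these counts was not tested. On chromosome 19 the FOXA2 lists had 220 and 239 peaks and the first-replicate lists 87 and 85, whereas each of the 6 other joined lists had 0. A scan of 500-kb bins of the genome, chosen after these values were seen, gave 1687 bins with at least 5 peaks in each FOXA2 list and at least 3 in each first-replicate list. Of these, 23 bins (1.36%) held 0 peaks in all 6 other joined lists. They lay on chromosome 19 (6 bins), chromosome 5 (4), chromosome 21 (4), chromosome 22 (4) and chromosome 14 (3), with 1 each on chromosomes 6 and 9. Versions of GRCh38 prepared for alignment exist in which the duplicate centromere arrays of chromosomes 5, 14, 19, 21 and 22 are masked. Which version each list was made with is not given in the sources used here, and its part in the results was not tested.

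**Figure D1:**
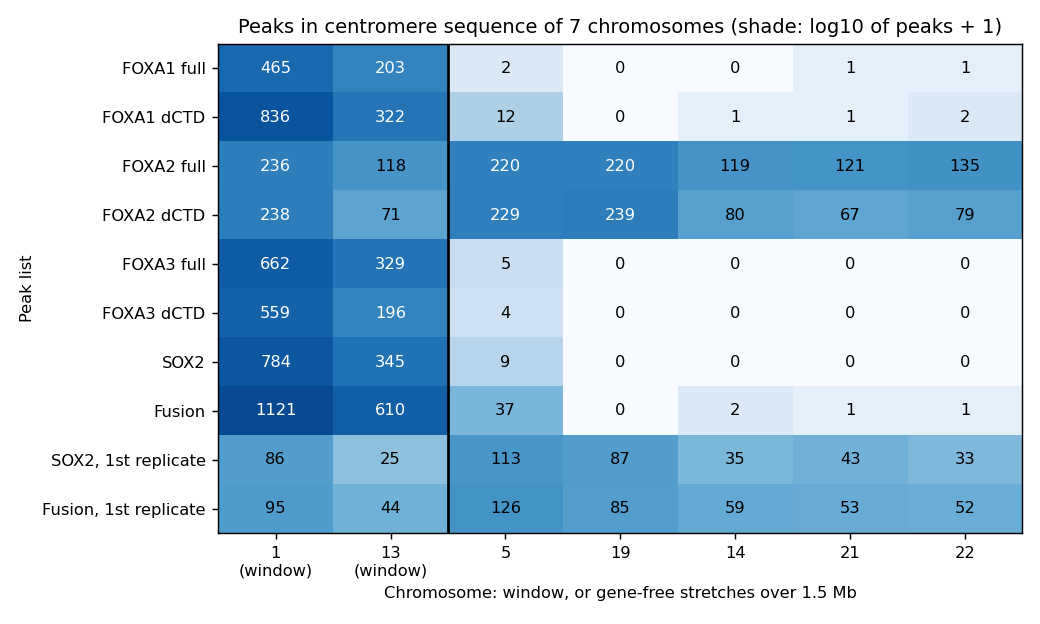
Number of peaks per list (rows) in the chromosome 1 and 13 windows and in the gene-free stretches of chromosomes 5, 19, 14, 21 and 22 (columns), with darker shade for more peaks. The FOXA2 lists and the first-replicate lists have peaks on all 7 chromosomes, from 25 to 239 in a cell, while the 6 other joined lists have 37 or fewer on chromosome 5, 0 on chromosome 19 and at most 2 on each of chromosomes 14, 21 and 22.

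The number of window peaks differed widely between the joined lists. The fusion list had 1731, the FOXA1 CTD-deleted list 1158, SOX2 1129, FOXA3 full length 991, FOXA3 CTD-deleted 755 and FOXA1 full length 668. FOXA2 full length had 354 and FOXA2 CTD-deleted 309, the lowest of the 8, and these are also the lists with peaks on the related chromosomes. As a share of its list, SOX2 stood highest, with 82.1% (80.0% to 84.0%) of its 1375 peaks in the windows. The fusion followed with 21.9% (21% to 22.9%) of 7895, FOXA3 full length with 16.2% (15.3% to 17.1%) of 6130 and FOXA3 CTD-deleted with 11.1% (10.4% to 11.8%) of 6813. The shares were 1.78% (1.65% to 1.92%) for FOXA1 full length, 2.29% (2.16% to 2.43%) for FOXA1 CTD-deleted, 0.785% (0.708% to 0.871%) for FOXA2 full length and 0.578% (0.518% to 0.646%) for FOXA2 CTD-deleted. Lists with few peaks elsewhere therefore had large shares here without larger counts: the SOX2 list had 246 peaks outside the windows and the FOXA1 CTD-deleted list, with a like number inside, had 49381. As deposited, the CTD-deleted list had more window peaks than the full-length list for FOXA1 (1158 against 668) and fewer for FOXA2 (309 against 354) and FOXA3 (755 against 991). With 1 list a group, these differences have no replicate check. At an IDR of at most 0.01, which removes every FOXA2 full-length peak, the window counts were 774 for FOXA1 CTD-deleted, 755 for FOXA3 without its CTD, 587 for SOX2, 422 for FOXA3 with it, 351 for the fusion, 188 for FOXA1 full length and 118 for FOXA2 CTD-deleted. The limit kept 42.6% of the FOXA3 full-length window peaks, against 86.2% of its whole list, and 100% of both for FOXA3 CTD-deleted. In the other lists the window share was the higher. It was 66.8% against 53.1% for FOXA1 CTD-deleted and 28.1% against 9.16% for FOXA1 full length. For FOXA2 CTD-deleted it was 38.2% against 12.2%, for SOX2 52.0% against 46.1% and for the fusion 20.3% against 4.86%. The difference for FOXA2 and FOXA3 changes sign at this limit, and the fusion list moves from the highest count to the fifth. For FOXA2 the sign was fixed in advance, because the limit leaves 0 peaks in the whole full-length list. For FOXA3 only the full-length list could lose peaks, because all 6813 CTD-deleted peaks pass the limit. Neither change of sign therefore compares the proteins.

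Chromosome 1 had more window peaks than chromosome 13 in all 10 lists, for example 1121 against 610 in the fusion and 465 against 203 in FOXA1 full length. Per megabase the order was the same in all 8 joined lists. The fusion had 320 peaks per Mb on chromosome 1 and 290 on chromosome 13, FOXA1 CTD-deleted 239 and 153, and SOX2 224 and 164. The peaks covered from 2.25% of the chromosome 1 window in the FOXA2 full-length list to 18.1% in the fusion list. Window peaks were mostly narrower than the rest of their list. Their median width was 308 bp against 577 bp in FOXA2 full length and 517 bp against 698 bp in FOXA1 full length, but 516 bp against 510 bp in SOX2.

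The windows were not filled evenly. When overlapping peaks of the 8 joined lists were merged, 2083 sites resulted, 1303 on chromosome 1 and 780 on chromosome 13. Sites less than 15 kb apart formed 3 dense blocks of at least 100 sites each. The block on chromosome 1, chr1:122503355-124785284, was 2282 kb long and held 1278 sites. The blocks on chromosome 13 were chr13:16286285-17444734 (1158 kb, 540 sites) and chr13:17506597-18051171 (545 kb, 199 sites). Together they held 6966 (98.2%) of the 7095 peaks, and between 92.4% (FOXA2 full length) and 99.7% (FOXA3 CTD-deleted) of each list. The first-replicate lists had less of their window peaks there, 82.9% of 111 for SOX2 and 75.5% of 139 for the fusion.

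Inside the blocks the peaks formed a nearly continuous field. Of the 21 whole 100-kb bins in the chromosome 1 block, each held peaks of all 8 lists, with 173 to 272 peaks a bin (median 202). On chromosome 13, 14 of 15 bins held all 8 lists, with 101 to 154 peaks a bin (median 128). The start of the chromosome 1 block was shared by 4 lists. There both FOXA1 lists and both FOXA3 lists had an empty stretch of 755586 to 755656 bp before the block, which ended between 122503415 and 122503490. The other lists had peaks in that stretch: the longest empty run ended at 122433588 in SOX2 and at 122260740 in the fusion, and it measured 341579 bp in FOXA2 full length. In FOXA2 CTD-deleted the longest empty run, of 348560 bp, lay at the other end of the block. Outside the blocks a few small groups recurred. The largest was chr13:16093289-16164856, with 21 sites in 71.6 kb.

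**Figure D2:**
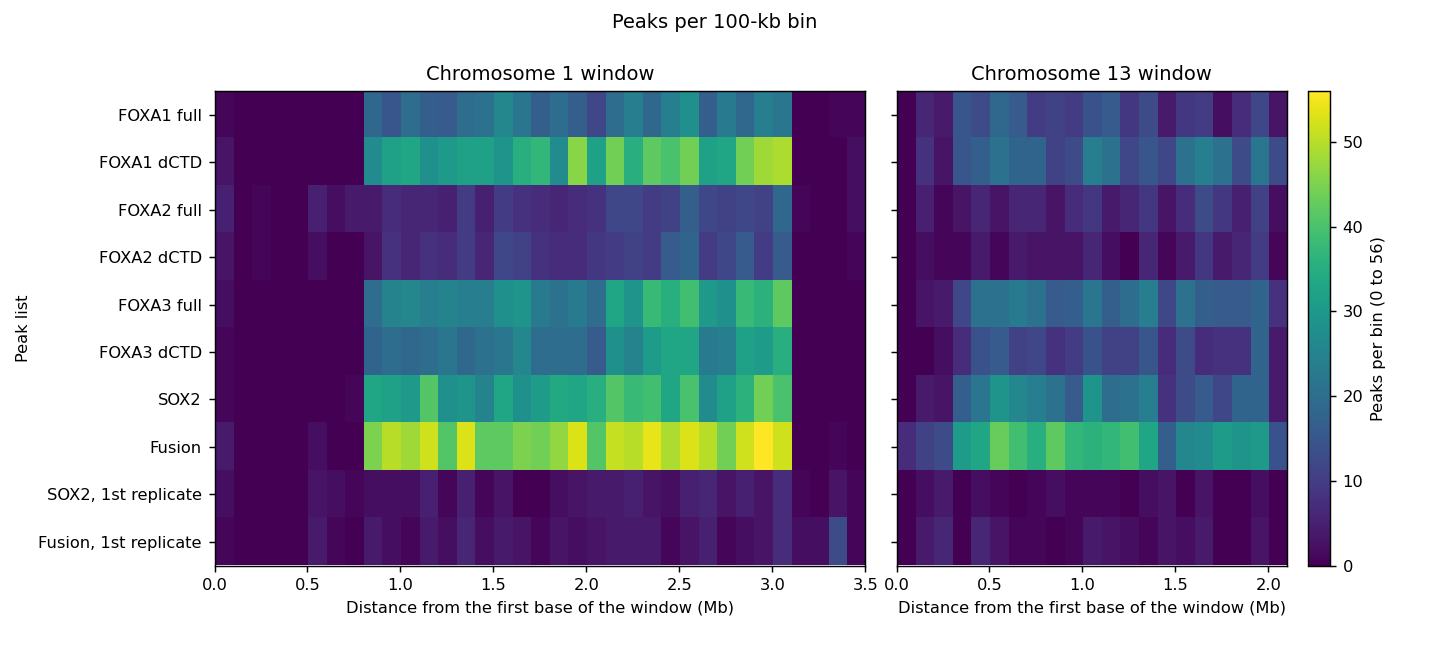
Peaks per 100-kb bin (colour, 0 to 56) for each of the 10 lists (rows) against distance from the first base of the chromosome 1 window (left) and the chromosome 13 window (right). The same dense blocks appear in all 8 joined lists, with the fusion list reaching 56 peaks in a bin, and the first-replicate lists stay at 13 or fewer.

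The window limits fell in sparse sequence. On chromosome 1 the first peak inside, at 121743127-121743744 in the FOXA2 CTD-deleted list, had −log10 p of 10.0 and 3.89 in its replicates, and the nearest peak before the window, at 121587389-121588319 in the FOXA1 full-length list, had 7.53 and 4.73. The last peak inside ended at 125133223 and the next one after the window began at 143283322, both in the FOXA2 CTD-deleted list, with 4.57 and 2.86 for the first and 3.20 and 2.21 for the other. On chromosome 13 the first peak inside began at 16003539 in the fusion list, with 2.41 and 2.57. The last one ended at 18051171 in the same list, with 5.86 and 4.6, and the next began at 18203683 in the FOXA1 CTD-deleted list, with 3.62 and 11.2.

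Neighbouring peaks of a list lay a few kilobases apart in the windows. The median distance between neighbouring summits was 1821 bp in the fusion list (143382 bp in the rest of that list), 2449.5 bp in FOXA1 CTD-deleted (29582 bp) and 2588 bp in SOX2 (260899 bp). It was 2972 bp in FOXA3 full length (250476 bp), 3453 bp in FOXA3 CTD-deleted (215298 bp) and 4307 bp in FOXA1 full length (39105 bp). The FOXA2 lists were sparser, with 9129 bp at full length (30885 bp) and 8746 bp without the CTD (26940 bp). In the first-replicate lists the medians were 24333 bp for SOX2 (72224 bp) and 20261 bp for the fusion (33899 bp), so these lists came closest to the spacing of their own remainder.

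Lists with more window peaks had the shorter spacing, except that FOXA2 CTD-deleted, with fewer peaks than FOXA2 full length, had the slightly shorter median. Within 2 kb of the next summit lay 55.1% of the neighbour distances in the fusion list and 10.5% in FOXA2 full length. Spacing was wider on chromosome 13 than on chromosome 1 in all 8 joined lists. The medians were 6817 bp against 2929.5 bp in FOXA3 CTD-deleted and 2225 bp against 1679.5 bp in the fusion. The shortest distances in the joined lists ranged from 341 bp in the fusion to 477 bp in FOXA2 CTD-deleted.

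**Figure D3:**
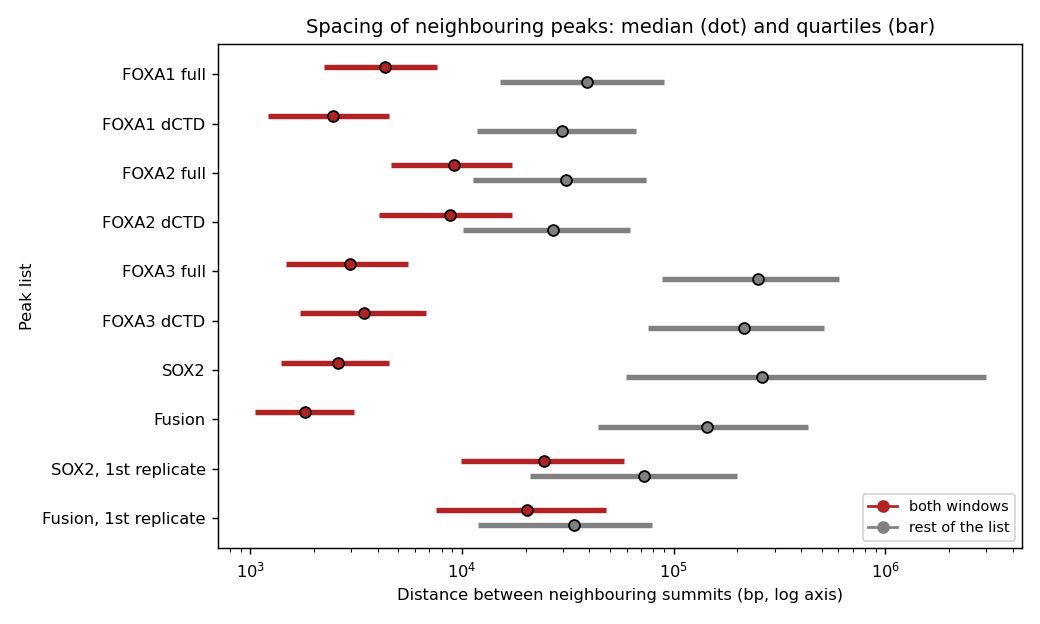
Distance between neighbouring summits (bp, log axis) for each list, as the median (dot) and the quartiles (bar), in both windows (red) and in the rest of the list (grey). In all 10 lists the median in the windows is below that of the rest, with the widest gap in the FOXA3, SOX2 and fusion lists.

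The strength of a peak is given as the lower of the −log10 p values of its replicates. Since p depends on depth, medians were compared within a list. By this measure window peaks had the higher median in all 8 lists. The medians were 7.27 in the windows against 4.33 in the rest for FOXA1 CTD-deleted, 9.78 against 7.57 for FOXA3 CTD-deleted, 5.31 against 4.08 for SOX2 and 4.15 against 2.81 for the fusion. They were 4.70 against 2.96 for FOXA2 CTD-deleted, 3.04 against 2.24 for FOXA2 full length, 8.41 against 7.83 for FOXA3 full length, and 4.73 against 4.08 for FOXA1 full length. Each replicate has its own p column, and in the first the window median was higher in all 8 lists. In the second it was lower for FOXA3 full length (10.2 against 12.5) and FOXA3 CTD-deleted (11.5 against 12.6). It was nearly equal there for FOXA1 full length (5.40 against 5.33) and FOXA1 CTD-deleted (8.20 against 8.00), and higher in the other lists. Of the 100 strongest peaks, 95 lay in the windows for SOX2, where 82.1% of the whole list did. The fusion had 93 there (21.9% of its whole list) and FOXA3 CTD-deleted 73 (11.1%). FOXA1 CTD-deleted had 58 (2.29%) and FOXA3 full length 57 (16.2%). FOXA1 full length had 14 (1.78%), FOXA2 CTD-deleted 6 (0.578%) and FOXA2 full length 3 (0.785%). The size of the difference depends on the peaks taken. For FOXA1 full length the median was 0.0962 higher in the windows than in the rest at an IDR of at most 0.01. For FOXA3 full length it was 4.56 higher at that limit, and 5.19 higher without the entries that are copies of the CTD-deleted list.

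By the median, replicates of a group placed their summits closer together in the windows. The median distance between the summits of both replicates was 46 bp against 140 bp in the rest for the fusion, 30 bp against 68 bp for FOXA1 full length and 19 bp against 37 bp for FOXA1 CTD-deleted. It was smaller in the windows in each of the 8 lists. The share of peaks with both summits within 100 bp was higher in the windows in 6 lists, but in FOXA3 full length it was 85.1% against 89.9% and in FOXA3 CTD-deleted 89.4% against 89.7%. Ranks of −log10 p between replicates were also more alike in the windows in each list. Spearman's rho across window peaks, which are not independent replicates, ran from 0.206 in SOX2 to 0.746 in FOXA1 CTD-deleted. Replicates did not carry equal weight: in FOXA1 full length the median −log10 p of window peaks was 10.6 in the first p column and 5.40 in the second, against 5.24 and 5.33 in the rest of the list.

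Many sites recurred across factors. Of the 2083 merged sites, 1435 (68.9%) had peaks of 2 or more of the 8 lists, where the same merging over the whole genome gave 45.6%. At 5 or more lists there were 630 sites (30.2%, 28.3% to 32.3%) against 4% genome-wide. All 8 lists met at 110 sites (5.28%, 4.4% to 6.33%) against 0.105% genome-wide. Of the 115 sites in all 8 lists in the genome, 5 lay outside the windows. Without both FOXA2 lists, 252 of 2064 window sites (12.2%) were in all 6 remaining lists, against 0.349% of the sites genome-wide, and 6 such sites lay outside the windows. Recurrence was higher on chromosome 1, where 92 of 1303 sites (7.06%, 5.79% to 8.58%) were in all 8 lists, than on chromosome 13, with 18 of 780 (2.31%, 1.46% to 3.62%). The number of sites in all lists cannot exceed the peaks of the shortest list. Outside the windows SOX2 had 246 peaks, against 107639 merged sites, so the shares for all lists were bound to be low there. Peaks are also denser in the windows than elsewhere, as the spacing shows, and the part of that density in the recurrence was not tested.

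**Figure D4:**
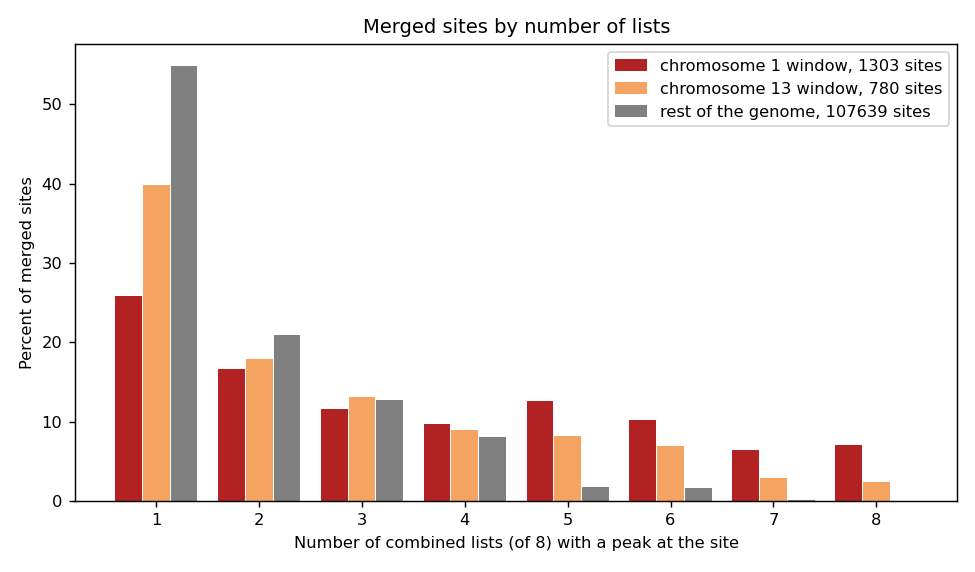
Percent of merged sites (vertical axis) by the number of the 8 joined lists with a peak at the site (horizontal axis), for the chromosome 1 window, the chromosome 13 window and the rest of the genome. Sites in 5 or more lists make up 36.2% on chromosome 1 and 20.3% on chromosome 13, and 3.50% in the rest of the genome.

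The mix of factor families at a site differed from the rest of the genome. In the windows 1208 sites (58.0%) held a peak of at least 1 FOXA list together with SOX2 or the fusion, against 1857 (1.73%) of the 107639 sites elsewhere. FOXA lists alone made up 254 sites (12.2%) in the windows and 94.2% elsewhere. Outside the windows the SOX2 list had 246 peaks and the fusion list 6164. Few of the 107639 sites could therefore hold either, so the shares elsewhere follow largely from the length of these lists. SOX2 or the fusion without any FOXA list made up 621 sites (29.8%), against 4.10% elsewhere. Of these, 414 were found by the fusion alone (19.9% of window sites, 4.03% elsewhere, and 25.3% of the fusion's own window sites). Sites of 1 list were fewer for the other factors: 100 for FOXA1 CTD-deleted (9.12% of its window sites), 76 for SOX2 (7.02%), 27 for FOXA1 full length (4.21%) and 14 for FOXA2 full length (4.03%). There were 13 for FOXA3 at full length (1.37%), 3 without its CTD (0.412%) and 1 for FOXA2 CTD-deleted (0.332%). In all, 648 window sites (31.1%) were of 1 list, against 54.4% genome-wide. Such sites were weaker than the shared ones. In the fusion list the median strength was 3.16 at its own sites and 9.05 at the sites of all 8 lists, and in FOXA1 CTD-deleted 4.78 and 18.5.

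The 110 sites in all 8 lists lay in the blocks without exception. On chromosome 1 they ran from 122527025 to 124782365 with a median spacing of 17.1 kb, and the widest gap between neighbours was 117 kb. On chromosome 13 the spacing was 31.6 kb, and 12 of the 18 sites lay in the last block. At the 85 sites with exactly 1 peak of each list, the 8 summits spanned a median of 45 bp (12 to 670 bp), and at 70 of them all summits lay within 100 bp. At most of these sites the peaks of the 8 lists thus had their summits at nearly the same place. The sites were chosen because peaks of all lists overlap there. Whether the proteins set this place was not tested. FOXA3 CTD-deleted had the highest strength at 49 of the 110 sites, FOXA1 CTD-deleted at 39, FOXA3 full length at 11, the fusion at 8, FOXA1 full length at 2 and SOX2 at 1. Neither FOXA2 list had the highest strength at any of them. These levels set different libraries beside each other, and the part of depth in them was not tested.

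Among the chromosome 13 sites in all 8 lists, the highest median strength was at chr13:17170359-17171089, an intergenic site 731 bp long in the first chromosome 13 block. Its −log10 p values in both replicates were 45.0 and 13.1 in FOXA1 full length and 48.2 and 36.6 in FOXA1 CTD-deleted. They were 23.7 and 16.6 in FOXA2 full length, 44.5 and 14.5 in FOXA2 CTD-deleted, 43.9 and 56.4 in FOXA3 full length, and 73.3 and 45.0 in FOXA3 CTD-deleted. SOX2 had 65.7 and 32.7, and the fusion 56.2 and 33.1. The values of FOXA2 full length overlapped only with the ranges of FOXA1 full length and FOXA2 CTD-deleted. FOXA1 full length and FOXA2 CTD-deleted had 1 high and 1 low replicate each. By strength the site had rank 2 in the SOX2 list and in the FOXA3 full-length list, rank 4 in the fusion list and rank 542 in FOXA1 full length. All 8 summits fell between 17170584 and 17170615, a span of 31 bp.

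On chromosome 1 the site at chr1:124573082-124573566 held the strongest peak of the FOXA3 CTD-deleted list, with −log10 p of 81.4 and 76.8. FOXA1 CTD-deleted had 71.3 and 61.5 there, and FOXA1 full length 68.5 and 9.86, the widest gap between replicates at this site. FOXA2 full length had 12 and 9.36, FOXA2 CTD-deleted 28.1 and 23, and FOXA3 full length 31.0 and 52.3. SOX2 had 26.9 and 29.8 and the fusion 26.1 and 36.6. The values of FOXA2 full length overlapped only with the lower value of FOXA1 full length and lay below those of the other lists. The 8 summits spanned 47 bp.

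Among the sites in all 8 lists, the other chromosome 1 sites with the highest median strength were chr1:123953352-123953628, chr1:123988090-123988690, chr1:122865347-122865981, chr1:123974103-123974800 and chr1:123026990-123027561. On chromosome 13 they were chr13:17680470-17681541, chr13:17060519-17061672 and chr13:17947837-17948659. All were in 8 lists, and their summits spanned 24 to 72 bp. FOXA1 full length was uneven between replicates at each of the chromosome 1 sites, for example 77.5 and 17.4 at 123988090 and 67.2 and 6.24 at 122865347. FOXA2 CTD-deleted was uneven at chromosome 13 sites, with 78.3 and 23.1 at 17680470 and 79.0 and 14.3 at 17947837.

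The strongest window peak of a list was not always at such a site. FOXA1 and FOXA3 at full length shared theirs, at 122829329-122830693 and 122829240-122830713 on chromosome 1, with −log10 p of 70.9 and 67.4 in FOXA1 and 62.4 and 71.8 in FOXA3. Each was the strongest peak of its whole list, and the site held 6 lists. FOXA1 CTD-deleted and FOXA2 CTD-deleted shared another, in chr1:124322243-124323502, a site of 7 lists, with strengths of 62.3 and 39.5. FOXA2 full length had its strongest chromosome 1 peak there too, at 16.4, but its strongest window peak was at chr13:17170378-17171005, at 16.6, in the chromosome 13 site described above. The longest window peaks were chr1:122728804-122731509 in the fusion list (2706 bp) and chr13:16150363-16153470 in FOXA3 full length (3108 bp), and neither was among the strong ones, with strengths of 2.49 and 6.43.

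Overlap between lists was then read pair by pair, with a peak counted as shared at 1 bp of overlap. For the same protein with and without its CTD, 68.4% (64.8% to 71.8%) of the FOXA1 full-length window peaks were overlapped by FOXA1 CTD-deleted, against 56% over the whole list. In the reverse direction the share was 39.8% (37.0% to 42.7%) against 41.7%. For FOXA2 the shares were 63.6% (58.4% to 68.4%) of full length, against 51.3%, and 72.8% (67.6% to 77.5%) of CTD-deleted, against 43.2%. For FOXA3 they were 74.5% (71.7% to 77.1%) of full length, against 94.4%, and 97.7% (96.4% to 98.6%) of CTD-deleted, against 84.9%. The share for FOXA1 CTD-deleted differed from its list by less than the counting interval, and the whole-list shares for FOXA3 rest largely on copied entries, described next. Which peaks are taken bears on these shares. When both lists were limited to an IDR of 0.01 or less, the share was 83% for FOXA1 full length and 20% in reverse, 94.5% for FOXA3 full length and 53.2% in reverse, and 46% for SOX2 in the fusion and 76.9% in reverse.

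The FOXA3 lists have entries in common. Of the FOXA3 full-length list, 5012 entries (81.8%) are identical to entries of the CTD-deleted list, values included, so they are not separate measurements. In the windows 174 of 991 were identical (17.6%). A further 1118 entries have no such copy, and 817 of them (73.1%) are window peaks, while 564 of the 817 (69.0%) overlapped a FOXA3 CTD-deleted window peak. Over all 1118 the share was nearly the same, 776 (69.4%), so the lower share of the full-length window peaks comes with their fewer copies. The window peaks are therefore the larger part of what the FOXA3 full-length list holds on its own.

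SOX2 and the fusion shared 82.3% (79.9% to 84.4%) of the SOX2 window peaks, against 76.6% of the whole SOX2 list, and 54.9% (52.6% to 57.3%) of the fusion window peaks, against 13.6% of the whole fusion list. Outside the windows the shares were 50.4% and 2.03%. Across families, FOXA1 CTD-deleted overlapped 63.5% (60.7% to 66.3%) of the SOX2 window peaks, against 55.7% over the whole SOX2 list and 19.9% outside the windows. FOXA3 CTD-deleted overlapped 50.8% (47.9% to 53.7%), against 44.6% and 15.9%. The FOXA2 lists went the other way. FOXA2 full length overlapped 23% (20.7% to 25.6%) of the SOX2 window peaks, against 28.7% over the whole list and 54.9% outside, and FOXA2 CTD-deleted 21.1% (18.8% to 23.6%), against 25.5% and 45.5%. Likewise FOXA2 full length overlapped 30.3% (27.5% to 33.2%) of the FOXA3 full-length window peaks, against 59.6% over the whole list and 65.2% outside. Since 1129 of the 1375 SOX2 peaks lie in the windows, the whole-list shares are mostly made of the same peaks. In the reverse direction SOX2 overlapped 63.0% (60.2% to 65.8%) of the FOXA1 CTD-deleted window peaks, against 1.54% of that list, and 75.9% (72.7% to 78.8%) of the FOXA3 CTD-deleted ones, against 8.98%. The SOX2 list has 246 peaks outside the windows, which limits the share of any longer list, the fusion list included, that it can overlap there. The overlapping lists covered 2.28% to 18.2% of the windows and 2.87% to 24.8% of the blocks, below the shares just given, though covered length does not take the width of the overlapped peaks into account.

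Where lists shared a site, strong peaks of one tended to be strong in the other. Over the 28 pairs of lists, Spearman's rho of strength at shared window sites ran from 0.254 to 0.739 with a median of 0.473. Outside the windows it ran from −0.132 to 0.873 with a median of 0.255. There the highest value was that of the FOXA3 pair, whose lists have copied entries in common. The lowest, of FOXA1 full length with SOX2, rested on 40 sites. For the 12 pairs of a FOXA list with SOX2 or the fusion the median was 0.434 in the windows and 0.188 outside. The summits of a pair lay a median of 9 to 31 bp apart. Sites are not independent replicates, and the lists share the cell line and the reference sequence, so these values are descriptions.

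For SOX2 and the fusion the joined list could be set beside the list of the first replicate alone, and they differed most in the windows in how many joined peaks the first replicate held. The first-replicate list had 111 window peaks of 13977 (0.794%) for SOX2 and 139 of 42705 (0.325%) for the fusion, against 1129 and 1731 in the joined lists. Of the joined SOX2 window peaks, 86 of 1129 (7.62%, 6.21% to 9.31%) were overlapped by a first-replicate peak, against 19.9% over the whole list and 187 of 246 (76.0%) outside the windows. For the fusion it was 99 of 1731 (5.72%, 4.72% to 6.91%), against 55.2% over the whole list and 69.1% outside. In the longest gene-free stretch of each other chromosome the shares were 66.4% for SOX2 and 54.4% for the fusion. In the reverse direction the windows stood the other way. The joined list overlapped 78.4% of the SOX2 first-replicate peaks in the windows and 189 of 13866 (1.36%) outside, and for the fusion 73.4% and 10.2%. The outside shares are limited by the length of the joined lists there, 246 peaks for SOX2 and 6164 for the fusion. Strong peaks were missing from the first-replicate lists as well. Of the joined SOX2 window peaks with −log10 p of at least 10 in the first p column, 392 of 472 (83.1%) had no first-replicate peak, and for the fusion 408 of 487 (83.8%). Outside the windows this held for 2 of 28 and 6 of 202.

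The p-values differed in the same way. At overlapping window peaks the median −log10 p was 24.1 in the first p column of the joined SOX2 list and 6.30 in the first-replicate list, with a median ratio of 4.03. For the fusion the medians were 18.6 and 4.94, with a ratio of 3.74. Outside the windows the ratios were 0.996 and 0.993, and on the longest gene-free stretches of other chromosomes 1.0 and 0.993. Values within 5% of each other were found at 0 of 86 SOX2 pairs in the windows and 95 of 187 outside, and at 2 of 99 fusion pairs in the windows and 3721 of 4259 outside. On chromosome 1 the ratio was 3.89 for SOX2 and 3.67 for the fusion, and on chromosome 13 it was 4.46 and 4.01. At overlapping peaks the values of both kinds of list thus had a median ratio near 1 elsewhere and about 4 in the centromere sequence of chromosomes 1 and 13. The first-replicate lists also have peaks on chromosomes 5, 14, 19, 21 and 22. Why the values differ was not tested.

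**Figure D5:**
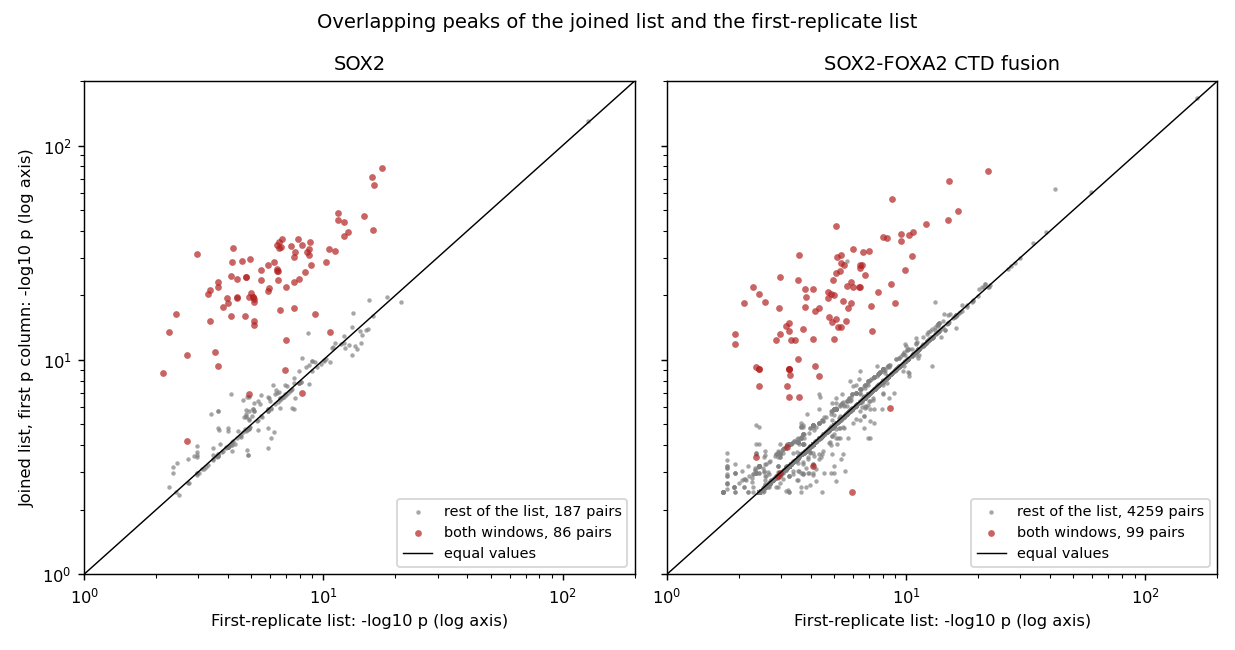
−log10 p of overlapping peaks in the first-replicate list (horizontal, log axis) and in the first p column of the joined list (vertical, log axis), for SOX2 (left) and the fusion (right), in both windows (red) and in the rest of the list (grey). Grey points follow the line of equal values, and red points lie mostly above it, with median ratios of 4.03 and 3.74.

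The few window peaks of the first-replicate lists were mostly at sites of the joined lists: 106 of 111 for SOX2 and 119 of 139 for the fusion overlapped a window peak of some joined list. The first-replicate lists shared 67 peaks with each other, 60.4% of the SOX2 ones and 48.2% of the fusion ones. The highest fold enrichment over local background, as the authors' caller gave it, was 6.15 at chr1:123970735-123970969 for SOX2, a site of all 8 joined lists. For the fusion it was 6.72 at chr13:17417354-17417916, a site of 2 joined lists. The highest fold outside the windows was 21.5 for SOX2 and 25.5 for the fusion, while the median folds in and outside the windows were 3.45 and 3.20 for SOX2 and 3.15 and 3.06 for the fusion.

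The windows also held unlike shares of the peaks in the longest gene-free stretch of each chromosome. On chromosomes 14, 21 and 22 that stretch held 1, 0 and 0 peaks of the joined lists. A shorter stretch on each, with 118, 121 and 135 peaks in FOXA2 full length, was not counted. With it the shares of the FOXA2 and first-replicate lists would be lower. For FOXA1, FOXA3 and SOX2 the windows held 88.4% to 93.9% of the peaks in these longest stretches, and for the fusion 81.8%. For the FOXA2 lists they held 15.3% at full length and 19.1% without the CTD, and for the first-replicate lists 9.22% and 9.63%. In the FOXA2 full-length list the stretch on chromosome 4 had 302 peaks, that on chromosome 11 had 278 and that on chromosome 18 had 274, each above the 236 in the chromosome 1 window. In the FOXA1 full-length list the same stretches had 11, 11 and 5. The lower number of window peaks in the FOXA2 lists thus cannot be told apart from the different spread of those lists over the centromeres of other chromosomes.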

How the data were processed

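ChIP-seq peaks of 8 Flag-tagged factor groups in U2OS cells were analysed as lists of positions. Per the submitters' processing notes the build was hg38 and the tools included FastQC 0.10.1, Trim Galore, Bowtie2 2.4.4, SAMtools 0.1.18, MACS2 and deepTools 2.4.1, with no roles given. The control, the p limit and the IDR limit are not given in the sources used here. The 8 deposited joined lists have the 20-column layout of the IDR program, and their −log10 p per replicate, their score (a scaled IDR, where 830 marks an IDR of 0.01) and their summit positions in bp (other) were used. The authors' first-replicate lists give −log10 p, −log10 q and a fold enrichment, which is a ratio to the local background. The p columns carry no replicate number. Of 14 files, 4 were byte copies and not used. Depth is unknown.

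Peaks were selected by midpoint, overlaps were counted at 1 bp, overlapping peaks were merged into sites, and spacing was measured between summits, with Python 3.11.15 and pandas 2.3.3. Code was tested on simulated data. The members, lists and alternatives were chosen with earlier results of these data known. Sites and peaks were named by rule: the strongest peak of each list in each window, the 6 chromosome 1 and 4 chromosome 13 sites in most lists with the highest median strength, the longest peak of each window, and the first-replicate peak with the highest fold. No peak sequence was read because no genome was used here. Where the settings change a value is given in the closing section.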

Additional observations from a re-analysis of the deposited data

How the results depend on the processing

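The settings were varied for most of 41 results. The share of peaks in the blocks, the count on related centromeres and the strength difference of FOXA2 full length were not recomputed. Of 127 values recomputed under other settings, 68 stayed within 1.5 times the reported count or, for shares and medians, within its 95% interval. Of the others 57 moved and 2 reversed. The difference in window peaks, CTD-deleted minus full length, was -45 for FOXA2 and -236 for FOXA3 as deposited. At an IDR of at most 0.01 it turned to 118 and 333. Neither turn compares like lists, since the limit empties the FOXA2 full-length list and removes no FOXA3 CTD-deleted peak. For FOXA3 the difference was -62 without the entries common to both lists. The same IDR limit left 188 window peaks for FOXA1 full length, 0 for FOXA2 full length, 118 for FOXA2 CTD-deleted, 422 for FOXA3 full length, 587 for SOX2 and 351 for the fusion, 793 sites in 2 or more lists and, since 1 list is then empty, 0 in all lists. With the first replicate alone, SOX2 had 111 peaks and the fusion 139. Without both FOXA2 lists, a choice made after seeing the data, as were leaving out the FOXA3 full-length list or the fusion list, 252 sites were in all lists. The first 2 of the pairwise shares are FOXA1 full length in CTD-deleted and the reverse: 59.7% and 34.5% at 50% reciprocal overlap, 57.6% and 33.2% with summits within 100 bp, 83% and 20% at the IDR limit, 51.9% and 51.9% when both lists were trimmed to their strongest peaks at equal number. For FOXA2 they were 57.9% and 66.3% at 50% reciprocal overlap. For FOXA3 they were 66.8% and 87.7%, 68% and 89.3%, 94.5% and 53.2%, and 80.3% and 80.8% under the same 4 settings, and 69% and 74.7% without the entries common to both FOXA3 lists. For SOX2 in the fusion and the reverse they were 70.7% and 46.1%, 69.3% and 45.2%, 46% and 76.9%, and 66.2% and 67%. Median spacing at the IDR limit was 11810.5 bp for FOXA1 full length, 3328.5 bp for FOXA1 CTD-deleted, 15583 bp for FOXA2 CTD-deleted, 5836.5 bp for FOXA3 full length, 4698 bp for SOX2 and 7440 bp for the fusion, and 3651 bp for FOXA3 full length without common entries. The difference in median strength between windows and rest at the IDR limit was 0.0962 for FOXA1 full length, 3.6 for FOXA1 CTD-deleted, 1.2 for FOXA2 CTD-deleted, 4.56 for FOXA3 full length and 0.62 for SOX2, and 5.19 for FOXA3 full length without common entries. The share of joined window peaks found in the first replicate was 3.19% for SOX2 and 1.73% for the fusion at 50% reciprocal overlap, and 3.19% and 1.96% for first-replicate peaks with −log10 q of at least 2. The cause of these moves was not tested beyond the smaller number of peaks that a stricter limit leaves. No paired analysis was possible because each group has 1 joined list, and leaving out each replicate in turn could not be done for the same reason, other than by the first-replicate lists of SOX2 and the fusion.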
